A study of Mus musculus with 20 samples.

Results

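The 28 genes described here encode enzymes of cholesterol synthesis, the transcription factor SREBP2 with proteins that regulate it, and sterol transport proteins. They were taken from a named list: a row of the deposited probe table belongs to them when its symbol, which is the row name without its closing probe number, is on that list, and every probe of such a symbol was kept. This gave 54 probes for 28 genes, out of 30146 probes for 21450 genes in the table. All 28 genes were found. No measured value was used to choose them, although the list was drawn up with earlier results of these data known. The livers came from 20 male Balb-C mice aged 10 to 12 weeks, dosed by gavage on 7 consecutive days with Nafion BP2 (PFESA-BP2, Nafion byproduct 2), a fluorinated ether sulfonic acid left over from the making of a fluoropolymer. There were 4 mice in each of 5 groups, with doses of 0 (control), 0.03, 0.3, 3 and 6 mg/kg per day, and each library came from an individual animal. All groups shared strain, sex, age, route and schedule, and no mutation or transgene is given for any of them. Control mice received water per the protocol, whereas the titles of their libraries carry the word DMSO, and which vehicle was given is not settled here. RNA was measured with TempO-Seq, in which neighbouring short detector oligos are joined on their RNA and the joined products are counted by sequencing.

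Cholesterol is built from acetyl-CoA through HMG-CoA, mevalonate, farnesyl diphosphate, squalene and lanosterol, and the liver is a main site of this synthesis. SREBP2, encoded by Srebf2, is made as a membrane protein of the endoplasmic reticulum, where it is bound to the escort protein SCAP. When sterol in that membrane is low, SCAP carries SREBP2 to the Golgi, where proteases release its transcription factor part, which binds sterol response elements near the start sites of the pathway's genes, often beside sites for NF-Y and SP1. When sterol is ample, INSIG proteins hold SCAP back. The genes are described below in the order of the pathway, followed by the regulators and the sterol carriers. Some other steps of the pathway are not on the list and are not analysed here.

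Library totals ran from 6823518 to 10310931 counts. Levels are given in CPM, the counts of a probe for every 1000000 counts of the scaled library, and 3 counts corresponded to 0.251 to 0.511 CPM. Most libraries had a mean correlation of at least 0.942 with the rest of their group, while dose_3 replicate 4 had 0.870 and dose_6 replicate 4 had 0.940, so results that rest on these libraries are also given without them. Control and 0.03 mg/kg libraries lay in plate row A and 3 and 6 mg/kg libraries in row B, as read from the sample titles. The 0.3 mg/kg group lay in both, with dose_0.3 replicate 4 as its only library in row B. Hepatocyte markers were present in every group: the 8 markers summed to 26438 to 33705 CPM in controls and to 17454 to 21764 CPM at 6 mg/kg, where Alb and Cyp2e1 fell and Tat rose. In whole liver RNA, fewer cells of a type and less RNA in each cell cannot be told apart. Markers of dividing cells summed to 8.86 to 12.5 CPM in controls, 33.2 to 77.7 CPM at 3 mg/kg and 101 to 163 CPM at 6 mg/kg, and 6 of 6 rose at 6 mg/kg. Stellate cell markers summed to 244 to 267 CPM in controls and 128 to 172 CPM at 6 mg/kg, where 5 of 7 fell and 1 rose. Of 6 tested Kupffer cell markers 1 fell at 6 mg/kg, and of 6 tested sinusoidal endothelial markers 1 rose. Over all genes tested, 10.9% rose and 9.64% fell at that dose. The exocrine pancreas markers summed to 0 to 0.624 CPM in controls and 3.24 to 5.85 CPM at 6 mg/kg, where Pnliprp1, the 1 of them tested, rose. Neither any of the 3 tested lymphocyte and neutrophil markers nor the 1 tested cholangiocyte marker passed, and no marker of these lists was at 0 in all libraries. The part of these marker shifts in the results below was not tested.

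Promoter sequences were available for 23 of the 28 genes in RefSeq's table (build GRCm38.p6). They came as 29 windows from 250 bases before to 50 bases after a start site. Fdps, Fdft1, Sqle, Stard4 and Npc1 had no window. The motifs were searched on both strands. The sterol response element, searched as TCACNCCAC, was found in 1 of the 23 genes, Hmgcs1. It was in 1.24% of all 32851 windows and in 1.62% of the 7848 genes that had a window and a tested probe. Its shorter form CACCCCAC, which overlaps the longer one, was found in Hmgcs1 and Acat2, in 2.87% of all windows and in 3.89% of those tested genes. CCAAT, the motif bound by NF-Y, was in 20 of the 23 genes against 37.4% of all windows and 42.9% of the 7848 genes that had a window and a tested probe. GGGCGG, the motif bound by SP1, was also in 20 of the 23 genes, against 35.7% of all windows and 67.3% of those tested genes. Of the 16 genes with a window that rose at 6 mg/kg, 14 held CCAAT, and so did 6 of the 7 that did not pass, so the motif did not part them. A match is a description of letters in these windows and not a bound site, and genes with more than 1 window had more chances of a match than a single window. The 180 bases before the start site are printed below, 5′ to 3′ on the strand of the gene, with matches to TCACNCCAC or CCAAT on either strand in capitals. Forms of the sterol response element other than TCACNCCAC and CACCCCAC were not searched. Hmgcs1 is shown because it alone held a match to TCACNCCAC, and Mvk and Insig2 because they rose and held several CCAAT matches. Ebp is shown because it held CCAAT and did not rise, and Scap because the stretch held neither motif.
Hmgcs1, chr13:119690171-119690350, + strand: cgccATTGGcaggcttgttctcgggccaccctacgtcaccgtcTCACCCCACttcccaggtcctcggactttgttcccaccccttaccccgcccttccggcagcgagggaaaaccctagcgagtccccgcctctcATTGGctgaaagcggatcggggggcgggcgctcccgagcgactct
Mvk, chr5:114444089-114444268, + strand: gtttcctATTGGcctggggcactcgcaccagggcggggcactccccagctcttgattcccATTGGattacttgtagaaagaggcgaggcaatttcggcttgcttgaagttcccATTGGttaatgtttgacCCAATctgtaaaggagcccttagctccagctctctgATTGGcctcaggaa
Insig2, chr1:121332590-121332769, - strand: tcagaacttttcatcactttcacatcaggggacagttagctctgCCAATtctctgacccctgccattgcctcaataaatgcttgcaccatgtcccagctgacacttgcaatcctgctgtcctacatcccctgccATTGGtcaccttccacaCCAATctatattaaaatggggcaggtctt
Ebp, chrX:8193513-8193692, - strand: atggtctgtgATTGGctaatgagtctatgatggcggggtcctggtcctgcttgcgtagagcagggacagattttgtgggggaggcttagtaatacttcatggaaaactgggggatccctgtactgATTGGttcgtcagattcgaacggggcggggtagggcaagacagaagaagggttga
Scap, chr9:110333108-110333287, + strand: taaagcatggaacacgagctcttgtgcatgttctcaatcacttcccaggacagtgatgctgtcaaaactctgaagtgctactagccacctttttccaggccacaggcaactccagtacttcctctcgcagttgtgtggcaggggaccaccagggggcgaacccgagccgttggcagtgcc

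At 6 mg/kg, 19 of the 28 genes rose and none fell, where a gene is said to have risen or fallen when the probe with its highest mean count had an adjusted p under 0.05 in edgeR's quasi-likelihood test over all 14122 probes tested. Over all 10097 genes tested by such a probe, 10.9% rose and 9.64% fell at this dose. The rise took in every role of the synthesis pathway: 3 of 3 genes from acetyl-CoA to HMG-CoA (median log2 change 0.95), 4 of 6 from mevalonate to farnesyl and geranylgeranyl diphosphate (0.98), 3 of 3 from farnesyl diphosphate to lanosterol (1.58) and 7 of 9 from lanosterol to cholesterol (1.06). Of 4 regulators of SREBP, 2 rose, and of 3 sterol transport genes none passed, with median log2 changes of 0.54 and 0.17. The median log2 change of the 28 genes was 1.04, against 0.01 over all probes tested. In 16 of the 28 genes all 4 libraries at 6 mg/kg lay above all 4 controls, which held for 12.2% of all genes tested, and in 2, Ggps1 and Ebp, all 4 lay below, which held for 14.7%. All 28 passed the filter on low counts, also when the 6 mg/kg group or both upper dose groups were left out of it. Without dose_3 replicate 4 and dose_6 replicate 4, all 19 genes still rose, Ebp and Srebf2 fell, and the median was 1.13. Over all probes, 3961 of 14271 passed in that fit, against 2867 of 14122 with all libraries. With plate row as a covariate, which the 0.3 mg/kg group alone ties to dose, 8 genes passed and the median was 1.24. The 8 were Pmvk, Idi1, Fdps, Fdft1, Sqle, Cyp51, Insig1 and Insig2. Over all probes, 508 of 14122 passed with this covariate. In that fit the row effect rests on dose_0.3 replicate 4 against the rest of its group. It cannot be told apart from a difference between mice.

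**Figure D1:**
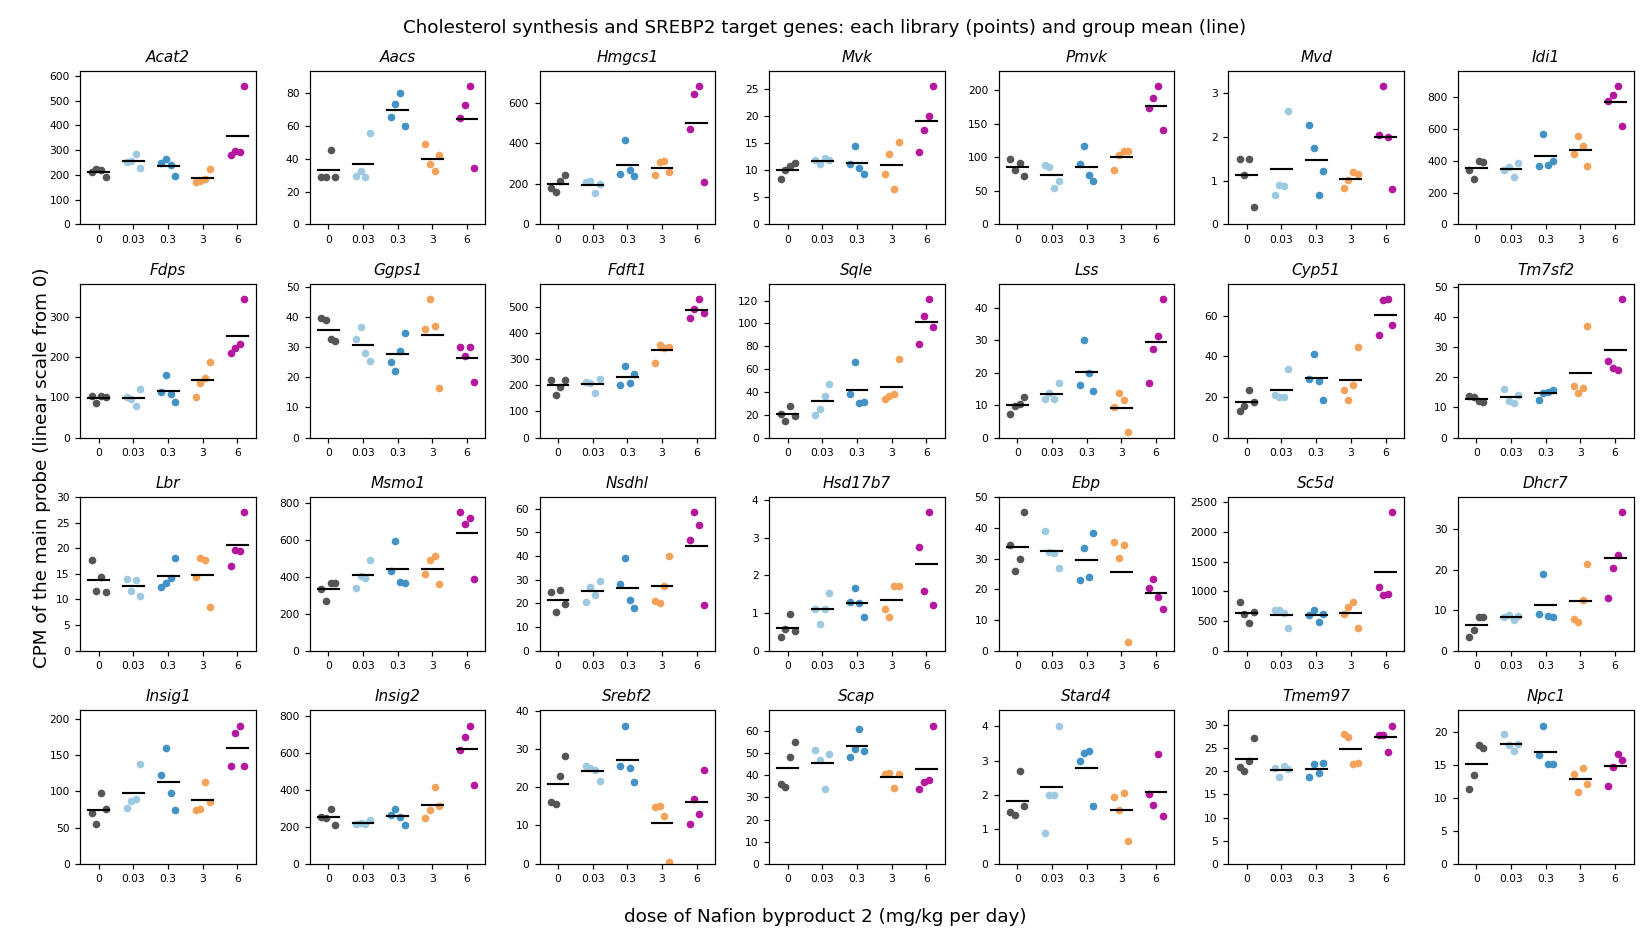
CPM of the main probe of each of the 28 genes (vertical axes, linear from 0) by dose in mg/kg per day (horizontal axis), with 1 point for each mouse and a line at the mean of the 4 mice of a group. Most synthesis genes stand highest at 6 mg/kg, as Fdft1 with 459 to 530 CPM against 162 to 222 CPM in controls, while Ebp and Ggps1 are lower there than in controls.

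Each listed gene of the first steps of the pathway rose at 6 mg/kg, though not alike in every liver. Hmgcs1 makes HMG-CoA from acetoacetyl-CoA and acetyl-CoA, and its gene lies at chr13:119690379-119708260 (+ strand, GRCm38). Hmgcs1 held 162, 179.7, 215 and 243 CPM in controls and 207, 471, 643 and 681 CPM at 6 mg/kg. Of the 4 mice at 6 mg/kg, 3 stood above every other library, while dose_6 replicate 4 fell among the controls. Between these groups Hmgcs1 held 153, 200.1, 208 and 215 CPM at 0.03 mg/kg, 239, 246, 270.1 and 414 CPM at 0.3 mg/kg and 244, 258, 305 and 312 CPM at 3 mg/kg. The log2 change at 6 mg/kg was 1.32 (SE 0.27, adjusted p = 0.0015). Acat2, the cytosolic thiolase that joins acetyl-CoA units, held 191, 213, 220.4 and 222 CPM in controls and 279.5, 291, 297 and 558 CPM at 6 mg/kg. The groups did not overlap, and the highest value belonged to dose_6 replicate 4. The other libraries held 229, 252, 257 and 284 CPM at 0.03 mg/kg, 194, 242, 247 and 265 CPM at 0.3 mg/kg and 172, 176, 184 and 223 CPM at 3 mg/kg. Acat2 rose by a log2 of 0.75 (SE 0.18, adjusted p = 0.0060), which was 0.43 without dose_6 replicate 4 and still passed; whether its probes also pick up its close relative Acat3 was not tested. Aacs, which turns acetoacetate into acetoacetyl-CoA in the cytosol, held 28.6, 28.8, 29.0 and 45.2 CPM in controls and 34.0, 64.8, 72.6 and 84.0 CPM at 6 mg/kg. Here dose_6 replicate 4 again lay within the range of the controls, and the other 3 livers stood above them. The middle groups held 28.9, 29.6, 32.4 and 55.6 CPM at 0.03 mg/kg, 59.6, 65.1, 73.0 and 79.8 CPM at 0.3 mg/kg and 32.4, 36.5, 42.0 and 49.1 CPM at 3 mg/kg, so that all 4 livers at 0.3 mg/kg stood above all controls. Aacs rose by 0.95 (SE 0.25, adjusted p = 0.0098) on the log2 scale at 6 mg/kg, and its change at 0.3 mg/kg was 1.08 (SE 0.25, adjusted p = 0.38).

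From mevalonate to the diphosphates, Mvk, Pmvk, Idi1 and Fdps rose at 6 mg/kg, whereas Mvd and Ggps1 did not pass. Mvk, mevalonate kinase, held 8.36, 9.99, 10.9 and 11.4 CPM in controls and 13.3, 17.4, 20.0 and 25.6 CPM at 6 mg/kg, with no overlap. In the groups between it held 11.1, 11.9, 11.9 and 12.3 CPM at 0.03 mg/kg, 9.30, 10.4, 11.2 and 14.5 CPM at 0.3 mg/kg and 6.47, 9.27, 13.0 and 15.4 CPM at 3 mg/kg. Its log2 change at 6 mg/kg was 0.91 (SE 0.23, adjusted p = 0.0078). Pmvk, the kinase of the next step, held 72.3, 81.6, 92.0 and 97.2 CPM in controls and 141, 173, 188 and 206 CPM at 6 mg/kg, again with no overlap. At the lower doses Pmvk held 54.4, 64.0, 86.0 and 88.3 CPM at 0.03 mg/kg, 64.1, 73.5, 90.3 and 116 CPM at 0.3 mg/kg and 81.2, 103, 109 and 109 CPM at 3 mg/kg. Pmvk rose by a log2 of 1.04 (SE 0.19, adjusted p = 0.00062) at 6 mg/kg.

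Idi1, the isomerase that balances isopentenyl and dimethylallyl diphosphate, held 282, 344, 394 and 396 CPM in controls and 618, 774, 814 and 867 CPM at 6 mg/kg. Every liver at 6 mg/kg exceeded every other library, dose_0.3 replicate 2 included. The groups between held 300.3, 341, 357 and 385 CPM at 0.03 mg/kg, 366, 375, 399 and 566 CPM at 0.3 mg/kg and 363, 439, 494 and 557 CPM at 3 mg/kg. The log2 change of Idi1 at 6 mg/kg was 1.12 (SE 0.17, adjusted p = 9.5e-05). Fdps, which makes farnesyl diphosphate, held 84.7, 101, 103 and 104 CPM in controls and 209.6, 222, 232 and 344 CPM at 6 mg/kg. All 4 dosed livers stood above the rest of the series, with dose_6 replicate 4 highest. At the lower doses Fdps held 78.7, 95.6, 101 and 121 CPM at 0.03 mg/kg, 89.2, 108, 113 and 156 CPM at 0.3 mg/kg and 101, 136, 147 and 188 CPM at 3 mg/kg. Fdps rose by a log2 of 1.36 (SE 0.20, adjusted p = 8.2e-05).

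Mvd, the decarboxylase that makes isopentenyl diphosphate, was measured near the floor of the assay, at 3 to 26 counts a library. Its log2 change at 6 mg/kg was 0.79 (SE 0.48, adjusted p = 0.25), so no difference was detectable at this depth. Ggps1 draws farnesyl diphosphate off the sterol path to make geranylgeranyl diphosphate. It held 31.9, 32.6, 38.8 and 39.8 CPM in controls and 18.4, 26.9, 29.9 and 30.2 CPM at 6 mg/kg, so that the dosed livers lay below the controls, a log2 change of -0.44 (SE 0.23, adjusted p = 0.18) that missed the threshold. The gene overlaps Arid4b on the opposite strand, and probe positions were not used here.

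The committed steps from farnesyl diphosphate to lanosterol showed the highest median of the pathway. Fdft1, squalene synthase, is encoded at chr14:63145150-63179578 (- strand), where it overlaps Ctsb on the opposite strand. It held 162, 195, 219.7 and 222 CPM in controls, 287, 343, 348 and 357 CPM at 3 mg/kg and 459, 477, 494 and 530.4 CPM at 6 mg/kg. These groups formed steps with no overlap. At the low doses it held 171, 208, 213 and 225 CPM (0.03 mg/kg) and 203, 209, 244 and 274 CPM (0.3 mg/kg), which overlapped the controls. Fdft1 rose by 0.74 (SE 0.14, adjusted p = 0.0052) on the log2 scale at 3 mg/kg and by 1.30 (SE 0.14, adjusted p = 1.4e-06) at 6 mg/kg. Its other probe gave 0.44 (adjusted p = 0.24) at 3 mg/kg and rose by 1.27 at 6 mg/kg.

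Sqle, squalene epoxidase, catalyses a rate-limiting oxidation of the pathway and lies at chr15:59315077-59331192 (+ strand). It held 14.2, 18.7, 20.8 and 27.3 CPM in controls, 19.9, 25.4, 36.5 and 46.9 CPM at 0.03 mg/kg and 29.9, 31.0, 38.3 and 66.5 CPM at 0.3 mg/kg. At the upper doses Sqle held 34.2, 36.7, 37.8 and 69.1 CPM (3 mg/kg) and 81.9, 96.4, 106 and 121 CPM (6 mg/kg). From 0.3 mg/kg upward no liver overlapped the controls, and the 6 mg/kg livers stood above all others. The change of 2.32 at 6 mg/kg was the largest log2 change among the 28 main probes (SE 0.31, edgeR adjusted p = 2.6e-05). At 3 mg/kg the change was 1.13 (SE 0.30, adjusted p = 0.068), short of the threshold, and at 0.3 mg/kg it was 1.03 (SE 0.30, adjusted p = 0.43). At 3 mg/kg DESeq2 called it (adjusted p = 0.014), as did edgeR without dose_3 replicate 1 (0.047) or without dose_0.3 replicate 2 (0.038).

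Lss, lanosterol synthase, closes the sterol rings. It held 7.11, 9.71, 10.4 and 12.5 CPM in controls and 16.9, 27.2, 31.4 and 42.6 CPM at 6 mg/kg, with no overlap. The groups between held 11.8, 12.0, 13.7 and 16.7 CPM at 0.03 mg/kg, 14.2, 16.3, 19.9 and 30.0 CPM at 0.3 mg/kg and 1.62, 9.27, 11.6 and 13.6 CPM at 3 mg/kg. The lowest value of the series, 1.62 CPM from 17 counts, came from dose_3 replicate 4. That library held 20.5 CPM of the other Lss probe, the highest value of its group for that probe. Lss rose by a log2 of 1.58 (SE 0.41, adjusted p = 0.010) at 6 mg/kg. At 3 mg/kg the main probe gave -0.15, or 0.22 without dose_3 replicate 4, neither of which passed, and the other probe 0.89.

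**Figure D2:**
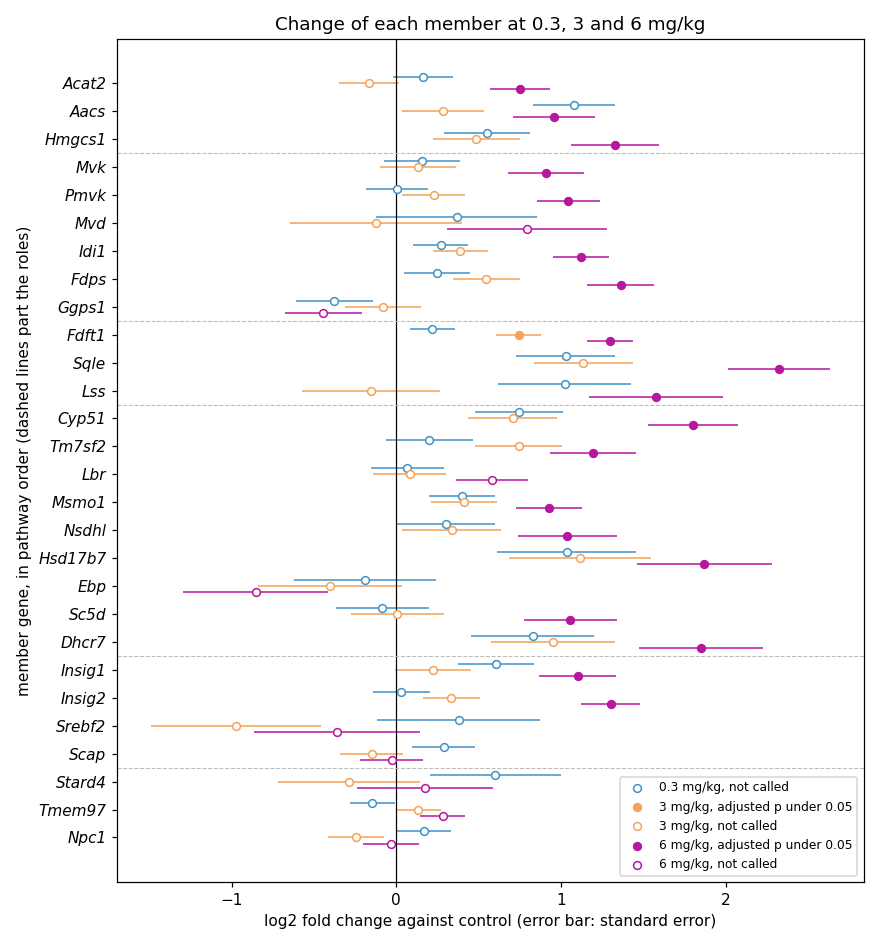
Log2 fold change against control (horizontal axis, bars show the standard error) of the main probe of each gene, in pathway order from top to bottom, at 0.3, 3 and 6 mg/kg; filled points had an edgeR adjusted p under 0.05. At 6 mg/kg 19 points are filled and all lie right of 0, at 3 mg/kg only Fdft1 is filled, and at 0.3 mg/kg none is.

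Between lanosterol and cholesterol, Cyp51, Tm7sf2, Msmo1, Nsdhl, Hsd17b7, Sc5d and Dhcr7 rose at 6 mg/kg, and Lbr and Ebp did not pass. Cyp51, the lanosterol demethylase, held 13.0, 15.6, 17.4 and 23.4 CPM in controls and 50.6, 55.5, 68.0 and 68.1 CPM at 6 mg/kg, above every other library. At the other doses it held 19.8, 20.1, 20.7 and 34.0 CPM at 0.03 mg/kg, 18.7, 27.9, 28.9 and 41.0 CPM at 0.3 mg/kg and 18.6, 23.7, 26.1 and 44.7 CPM at 3 mg/kg. Its log2 change at 6 mg/kg was 1.80 (SE 0.27, adjusted p = 9.2e-05), and the gene overlaps Akap9 on the opposite strand. Tm7sf2, a sterol reductase acting after Cyp51, held 11.8, 12.1, 13.4 and 13.9 CPM in controls and 22.5, 22.9, 25.5 and 45.8 CPM at 6 mg/kg. No library overlapped between these groups, and dose_6 replicate 4 and dose_3 replicate 4 each stood far above the rest of their group. The middle groups held 11.3, 12.0, 14.2 and 16.1 CPM at 0.03 mg/kg, 12.6, 14.9, 15.2 and 15.9 CPM at 0.3 mg/kg and 14.7, 16.4, 17.0 and 37.0 CPM at 3 mg/kg. Tm7sf2 rose by a log2 of 1.19 (SE 0.26, adjusted p = 0.0030), whereas its other probes gave 0.37 and 0.52 and did not pass. It overlaps Vps51 on the same strand.

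Lbr, the lamin B receptor, carries the same reductase activity as Tm7sf2. Its main probe held 11.6, 11.7, 14.3 and 17.7 CPM in controls and 16.4, 19.5, 19.7 and 27.0 CPM at 6 mg/kg. The groups touched, since dose_6 replicate 1 fell below control replicate 1. At the other doses Lbr held 10.6, 11.7, 13.9 and 14.0 CPM at 0.03 mg/kg, 12.4, 13.2, 14.2 and 18.1 CPM at 0.3 mg/kg and 8.58, 14.4, 17.7 and 18.1 CPM at 3 mg/kg. The change at 6 mg/kg was 0.58 (SE 0.22, adjusted p = 0.064), while another Lbr probe rose by 1.18 (adjusted p = 0.0020) and the sum of its probes by 0.76 (adjusted p = 0.00031). Lbr also passed when the libraries were scaled by total counts or by the upper quartile.

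Msmo1 and Nsdhl remove the methyl groups at the first ring. Msmo1 held 269.8, 335, 364 and 366 CPM in controls and 386, 687, 716 and 747 CPM at 6 mg/kg, with dose_6 replicate 4 nearest the controls but still above them. In the groups between, Msmo1 held 339, 391, 403 and 492 CPM at 0.03 mg/kg, 366, 373, 428 and 593 CPM at 0.3 mg/kg and 359, 413, 492 and 509 CPM at 3 mg/kg. It rose by a log2 of 0.93 (SE 0.20, adjusted p = 0.0026). Nsdhl held 16.2, 19.6, 24.8 and 25.8 CPM in controls and 19.3, 46.9, 53.0 and 58.5 CPM at 6 mg/kg, where 3 livers stood above all controls and dose_6 replicate 4 among them. The middle groups held 20.5, 23.6, 26.9 and 29.5 CPM at 0.03 mg/kg, 18.0, 21.4, 28.1 and 39.1 CPM at 0.3 mg/kg and 20.2, 21.2, 27.4 and 40.1 CPM at 3 mg/kg. Nsdhl rose by a log2 of 1.04 (SE 0.30, adjusted p = 0.019), and the call was lost without control replicate 2 (adjusted p = 0.062), control replicate 4 (0.051) or dose_6 replicate 2 (0.063).

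Hsd17b7, which reduces the ketone left by Nsdhl, was counted 3 to 31 times a library. It held 0.374, 0.519, 0.563 and 0.970 CPM in controls and 1.20, 1.58, 2.76 and 3.67 CPM at 6 mg/kg, without overlap. At the other doses it held 0.696, 1.11, 1.11 and 1.52 CPM at 0.03 mg/kg, 0.896, 1.26, 1.29 and 1.66 CPM at 0.3 mg/kg and 0.902, 1.11, 1.70 and 1.72 CPM at 3 mg/kg. The log2 change of 1.87 (SE 0.41, adjusted p = 0.0028) passed, but with counts this low its size is imprecise. Dhcr7, the enzyme of a closing reduction of the pathway, held 3.49, 5.07, 8.30 and 8.31 CPM in controls and 13.0, 20.3, 23.5 and 34.1 CPM at 6 mg/kg, with no overlap. In the groups between, Dhcr7 held 7.65, 8.21, 8.47 and 8.85 CPM at 0.03 mg/kg, 8.29, 8.54, 9.12 and 18.9 CPM at 0.3 mg/kg and 6.99, 7.75, 12.6 and 21.3 CPM at 3 mg/kg. Dhcr7 rose by a log2 of 1.85 (SE 0.37, adjusted p = 0.0017), and all 3 of its other probes rose as well.

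Sc5d, the desaturase before Dhcr7, held 459, 616, 659 and 814 CPM in controls and 940.3, 949, 1077 and 2332 CPM at 6 mg/kg. Of the 4 dosed livers, 3 stood just above the highest control and dose_6 replicate 4 far above all. At the other doses Sc5d held 391, 639, 684 and 694 CPM at 0.03 mg/kg, 490.1, 599, 620.1 and 694 CPM at 0.3 mg/kg and 387, 627, 729.9 and 817 CPM at 3 mg/kg. Sc5d rose by a log2 of 1.06 (SE 0.28, adjusted p = 0.012), which was 0.62 (adjusted p = 0.070) without dose_6 replicate 4 and 0.65 (adjusted p = 0.0079) without that library and dose_3 replicate 4.

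Ebp, the sterol isomerase between the demethylations and Sc5d, went the other way in level. It held 25.9, 29.8, 34.4 and 45.1 CPM in controls and 13.7, 17.6, 20.3 and 23.3 CPM at 6 mg/kg, so that every dosed liver lay below every control. At the other doses Ebp held 26.9, 31.9, 32.0 and 38.8 CPM at 0.03 mg/kg, 22.9, 24.0, 33.4 and 38.3 CPM at 0.3 mg/kg and 2.86, 30.2, 34.6 and 35.4 CPM at 3 mg/kg, where 2.86 CPM in dose_3 replicate 4 stood far below the rest. The change at 6 mg/kg was -0.85 (SE 0.44, adjusted p = 0.18) and did not pass with all 20 libraries. Without dose_3 replicate 4 the change was -0.84 and passed (adjusted p = 0.0022). The other Ebp probe gave -0.22 and did not pass.

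Among the regulators, Insig1 and Insig2 rose at 6 mg/kg while Srebf2 and Scap did not pass. INSIG1 and INSIG2 keep SCAP in the endoplasmic reticulum, and Insig1 is itself a classic SREBP target. Insig1 (chr5:28071363-28078662, + strand) held 55.4, 70.9, 75.7 and 97.6 CPM in controls and 135, 136, 180.2 and 191 CPM at 6 mg/kg, with no overlap. The middle groups held 77.3, 86.2, 89.9 and 137 CPM at 0.03 mg/kg, 74.2, 98.3, 123 and 159.7 CPM at 0.3 mg/kg and 75.0, 76.4, 85.5 and 113 CPM at 3 mg/kg, and reached above the lower livers at 6 mg/kg in dose_0.03 replicate 4 and dose_0.3 replicate 2. Its log2 change at 6 mg/kg was 1.10 (SE 0.23, adjusted p = 0.0022). Insig2 (chr1:121304353-121332589, - strand) held 209.7, 247, 253 and 295 CPM in controls and 428, 614, 684 and 747 CPM at 6 mg/kg, above every other library. At the other doses Insig2 held 213, 217, 219 and 238 CPM at 0.03 mg/kg, 211, 255, 263 and 297 CPM at 0.3 mg/kg and 248, 290.3, 314 and 415 CPM at 3 mg/kg. Insig2 rose by a log2 of 1.30 (SE 0.18, adjusted p = 2.6e-05).

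Srebf2 (chr15:82147181-82205379, + strand) held 15.6, 16.2, 23.0 and 28.2 CPM in controls, 0.381, 12.4, 14.8 and 15.2 CPM at 3 mg/kg and 10.3, 13.0, 16.8 and 24.4 CPM at 6 mg/kg. Every liver at 3 mg/kg lay below every control, and dose_3 replicate 4 held 4 counts, while the 6 mg/kg group overlapped the controls. At the low doses it held 21.6, 24.4, 25.0 and 25.5 CPM (0.03 mg/kg) and 21.3, 25.0, 25.6 and 36.1 CPM (0.3 mg/kg). The log2 change was -0.97 (SE 0.52, adjusted p = 0.46) at 3 mg/kg and -0.36 (SE 0.50, adjusted p = 0.64) at 6 mg/kg, neither of which passed. Without dose_3 replicate 4 the change at 3 mg/kg was -0.55. Without dose_3 replicate 4 and dose_6 replicate 4 it was -0.62 at 6 mg/kg and passed (adjusted p = 0.028), and without either of them alone it did not pass. With plate row as a covariate the 6 mg/kg change was 0.08. Scap held 34.9, 36.2, 48.1 and 54.9 CPM in controls and 33.6, 36.8, 37.9 and 62.5 CPM at 6 mg/kg, which overlapped, with the high value from dose_6 replicate 4. Its log2 change at 6 mg/kg was -0.03 (SE 0.19, adjusted p = 0.94), and its other groups ranged from 34.0 to 61.1 CPM.

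None of the 3 sterol transport genes passed at 6 mg/kg. Tmem97, a partner of the lysosomal cholesterol exporter NPC1, held 20.0, 21.0, 22.3 and 27.1 CPM in controls and 24.3, 27.8, 27.9 and 29.9 CPM at 6 mg/kg, a log2 change of 0.28 (SE 0.14, adjusted p = 0.14). It passed at 0.37 (adjusted p = 0.038) when the counts of its probes were summed. Npc1 ranged from 10.9 to 21.0 CPM over the 20 libraries and had a log2 change of -0.03 (SE 0.17, adjusted p = 0.91) at 6 mg/kg. Stard4, a cytosolic carrier of cholesterol, was counted 7 to 39 times a library and had a log2 change of 0.17 (SE 0.41, adjusted p = 0.80).

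At 3 mg/kg, Fdft1 was the 1 gene of 28 that rose, and none fell, where 1.13% of all genes tested rose and 0.406% fell. Of the 28 changes, 19 were above 0, 8 had an unadjusted p under 0.05, all of them upward, and the median log2 change was 0.22 against 0.00 over all probes. An unadjusted p under 0.05 was held by 12.2% of all probes, or 6.76% counting upward changes alone, and without dose_3 replicate 4 by 5 of the 28 genes. The largest changes after Sqle were those of Hsd17b7 at 1.12 (SE 0.43, adjusted p = 0.28) and Dhcr7 at 0.95 (SE 0.38, adjusted p = 0.30), and that of Dhcr7 was 0.51 without dose_3 replicate 4. Hmgcs1, Fdft1, Sqle and Tm7sf2 lay above all controls in all 4 livers, 4 of 28 where 3.44% of all genes did, and Srebf2 lay below, 1 of 28 where 4.59% did. Fdft1 did not pass in the fit on the 8 libraries of the comparison (adjusted p = 0.074) or with plate row as a covariate (0.92). Over all probes, 44 of 12717 passed in the first of these fits and 1 of 14122 in the second.

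At 0.3 mg/kg no gene of the list passed and none of all genes tested did (0% each way), yet 24 of the 28 changes were above 0 and the median was 0.28 against 0.00 over all probes. In edgeR 8 of the 28 had an unadjusted p under 0.05, all upward, against 8.32% of all probes, or 4.08% counting upward changes alone. DESeq2, and edgeR on the 8 libraries of the comparison, each called 1, Aacs. Aacs, Sqle, Lss and Msmo1 stood above all controls in all 4 livers (4 of 28, where 3.17% of all genes did), and none lay below them, where 3.76% of all genes did. The library dose_0.3 replicate 2 was the highest of its group in 19 of the 28 genes. Without it 2 of the 28 had an unadjusted p under 0.05, and the median was 0.16. At 0.03 mg/kg none passed (0% each way over all genes), 19 changes were above 0, the median was 0.15, limma-voom and DESeq2 called 0, and only Sqle, at 0.66 (SE 0.30, adjusted p = 1.0), had an unadjusted p under 0.05 (0.039), as had 3.24% of all probes. Acat2 alone lay above all controls, 1 of 28 where 1.69% of all genes did. These comparisons and those at the upper doses share the same 4 control libraries.

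The step from 3 to 6 mg/kg was tested on its own, and both groups lay in plate row B. Of the 28 genes 12 rose and none fell, against 3.77% and 3.19% of all genes tested, with a median log2 difference of 0.74. The 12 were Acat2, Mvk, Pmvk, Idi1, Fdps, Fdft1, Sqle, Lss, Cyp51, Sc5d, Insig1 and Insig2. Insig2 rose by 0.97 (SE 0.18, adjusted p = 0.0033), Acat2 by 0.92 (SE 0.18, adjusted p = 0.0056) and Sqle by 1.19 (SE 0.30, adjusted p = 0.021). In 11 of them, all but Mvk, the 4 livers at 6 mg/kg lay above the 4 at 3 mg/kg, against 5.74% of all genes, and in none below them, against 5.81%. The count depended on single livers: it was 2 (Acat2 and Insig2) without dose_3 replicate 1 and 6 without dose_3 replicate 2. In the fit on the 8 libraries of the comparison it was 0, and 14 of the 28 had an unadjusted p under 0.05. Over all probes 302, 408 and 11 passed in these fits, in that order, against 950 with all libraries. Without dose_3 replicate 4 and dose_6 replicate 4, 18 rose and Ebp fell, where 2478 of all 14271 probes passed.

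A slope over the rank of the 5 doses was positive and passed in 17 of the 28 genes, and negative in none, against 10.6% and 7.24% of all genes tested. The genes were Hmgcs1, Mvk, Pmvk, Idi1, Fdps, Fdft1, Sqle, Cyp51, Tm7sf2, Lbr, Msmo1, Nsdhl, Hsd17b7, Sc5d, Dhcr7, Insig1 and Insig2. The steepest were Sqle, with a log2 of 0.52 for each step of dose (SE 0.07, edgeR adjusted p = 1.3e-05), and Dhcr7, with 0.43 (SE 0.08, adjusted p = 0.00040). Fdft1 had the smallest p, with 0.33 (SE 0.04, adjusted p = 1.3e-06). Of the genes that rose at 6 mg/kg, Acat2, Aacs and Lss did not pass for the slope by their main probes. Each of these probes had a lower mean level at 3 mg/kg than at 0.3 mg/kg. Hmgcs1, Mvk, Cyp51 and Insig1 also had a lower mean level at 3 mg/kg than at 0.3 mg/kg, and they passed. The other Acat2 probes passed for the slope, at 0.247 (adjusted p = 0.00061) and 0.254 (adjusted p = 0.00026). So did the other Lss probe at 0.51 (adjusted p = 7.3e-06), with mean levels of 11.3 CPM at 0.3 mg/kg and 14.7 CPM at 3 mg/kg. With probes summed per gene, Acat2, Aacs and Lss passed. Lbr, at 0.14 (adjusted p = 0.049), lost its call in 17 of the alternatives.

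Seen by liver rather than by gene, the shift at 6 mg/kg was present in each of the 4 mice. For each library the median over the 28 genes of the log2 ratio to the control mean was taken. It was -0.19 to 0.16 in controls, 0.03 to 0.23 at 0.03 mg/kg, 0.14 to 0.67 at 0.3 mg/kg, 0.07 to 0.36 at 3 mg/kg and 0.80 to 1.18 at 6 mg/kg. By this median the 6 mg/kg livers lay apart from all others. Each had 22 to 24 of the 28 genes above the control mean. That count did not set them apart, since dose_0.3 replicate 2 had 25. Controls differed among themselves, with 4 of 28 above that mean in control replicate 2 and 22 in control replicate 3. The livers at 6 mg/kg were not alike gene by gene, since dose_6 replicate 4 was the highest of its group in 11 genes and the lowest in 13. It was highest for Acat2, Fdps, Sc5d and Dhcr7 and lowest for Hmgcs1, Aacs, Msmo1, Nsdhl and Insig2. The other 3 livers at 6 mg/kg held 471 to 681 CPM of Hmgcs1, where dose_6 replicate 4 held 207 CPM.

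**Figure D3:**
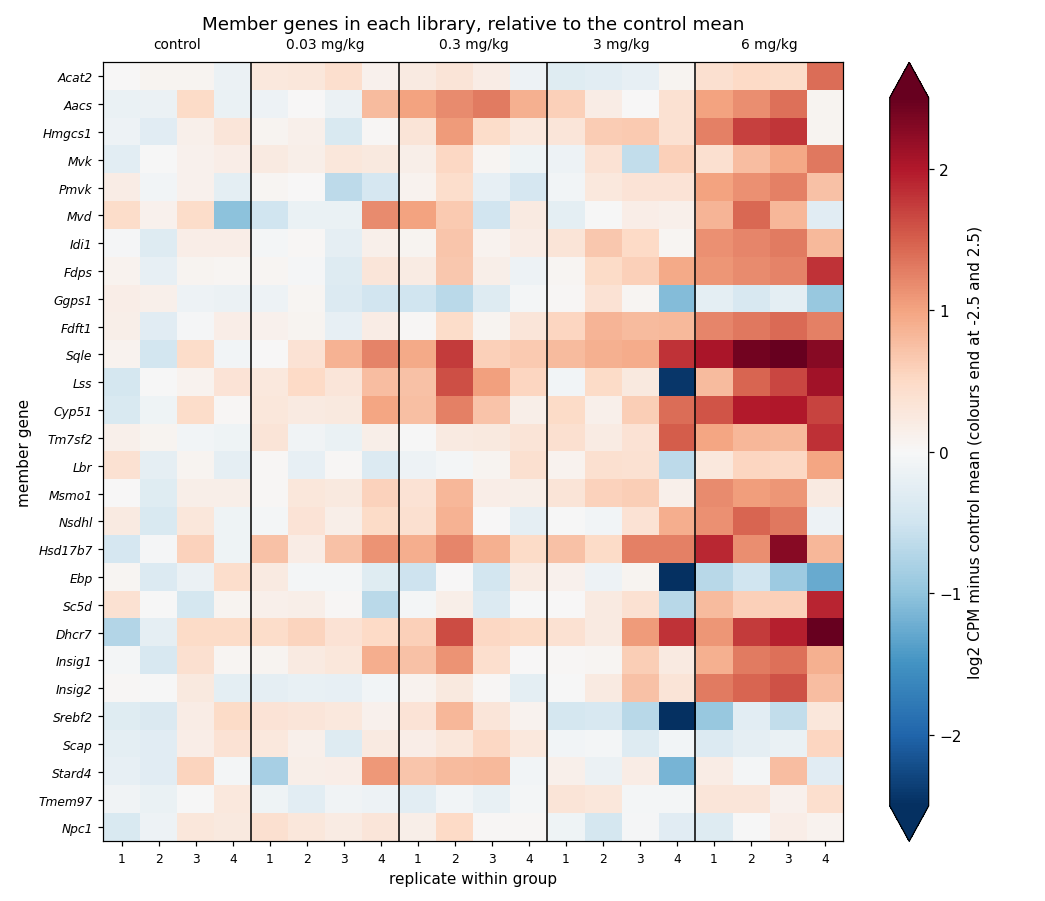
Each of the 28 genes (rows) in each of the 20 libraries (columns, grouped by dose), coloured by the log2 difference of its CPM from the control mean (red higher, blue lower). The 6 mg/kg columns are red for most synthesis genes, replicate 4 at 6 mg/kg is pale for Aacs, Hmgcs1, Nsdhl and Msmo1, and replicate 4 at 3 mg/kg is dark blue for Lss, Ebp and Srebf2.

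Other probes of the same genes gave a check on the main ones that the choice of a main probe did not use, though in the same RNA. At 6 mg/kg, 24 further tested probes of 16 genes were available, and the change of 23 had the same sign as that of the main probe of their gene; the exception was Npc1, with changes near 0. Over all 14122 probes tested, 1634 rose and 1233 fell at this dose. Of 15 further probes of genes that rose, 11 rose too. Of 9 further probes of the genes that did not pass, 2 passed, 1 of Lbr (1.18) and 1 of Ggps1, which fell by 0.87 (adjusted p = 0.031). For 3 mg/kg, 17 of the 24 further probes had the sign of the main probe, and none passed. At 6 mg/kg the second Sqle probe rose by 3.03 and the second Lss probe by 2.19. The 2 probes left untested for low counts belonged to Ggps1 and Nsdhl.

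**Figure D4:**
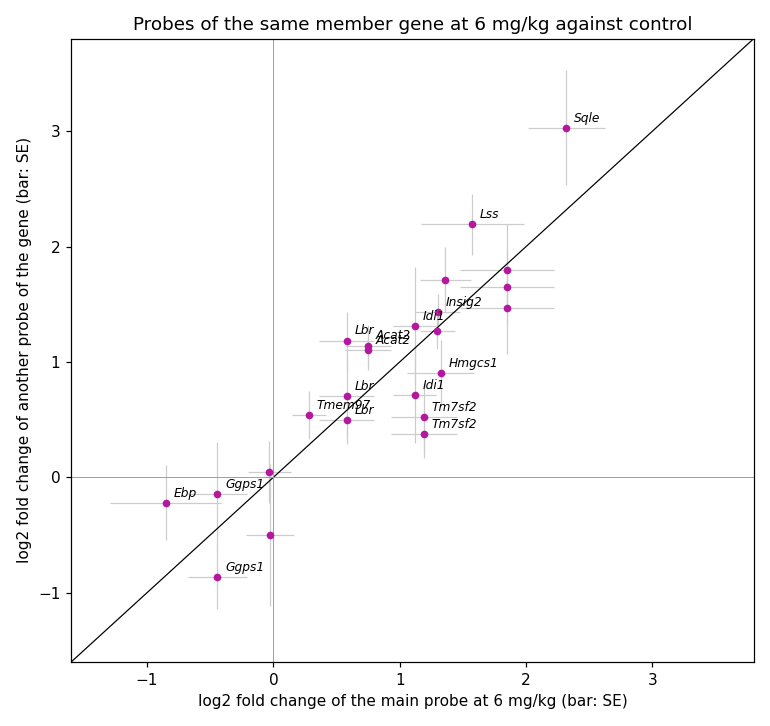
Log2 fold change at 6 mg/kg of each further probe (vertical axis) against that of the main probe of the same gene (horizontal axis), with standard errors as bars and the line of equal change. Of the 24 points 23 have the same sign on both axes, and Sqle stands highest at 2.32 and 3.03.

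Genes next to the pathway, from lists that also were drawn up with earlier results known, were measured at 6 mg/kg as well. Over all genes tested, 10.9% rose and 9.64% fell at this dose, and the counts below stand beside these shares. Of 9 tested partners in sterol sensing and SREBP processing, which include the proteases and ubiquitin ligases that act on SREBP, SCAP and INSIG, none passed (median log2 change 0.13). Of 18 genes of sterol uptake, storage, transport and efflux, 2 rose and 4 fell (median 0.08). Soat2, which esterifies cholesterol in liver, rose by 0.94 (SE 0.31, adjusted p = 0.037), and Nceh1, a cholesteryl ester hydrolase, by 0.52 (SE 0.14, adjusted p = 0.011). Scarb1, the receptor for high-density lipoprotein, changed by -0.71 (SE 0.17, adjusted p = 0.0046) and Stard5, a sterol carrier, by -0.54 (SE 0.14, adjusted p = 0.0084). Of 12 genes of the isoprenoid branch that leaves the pathway at farnesyl diphosphate, Dhdds of dolichol synthesis rose by 0.76 (SE 0.26, adjusted p = 0.042) and Fntb, a farnesyltransferase subunit near the floor of counts, by 1.20 (SE 0.41, adjusted p = 0.045), and the median was 0.20. Of 14 tested fatty acid synthesis genes that SREBP1 is known to control, 11 rose and none fell, with a median of 1.18. Fasn, fatty acid synthase, held 5.27 ± 2.11 CPM (SD, n = 4) in controls and 45.2 ± 13.7 CPM at 6 mg/kg, and rose by 3.10 (SE 0.42, adjusted p = 4.7e-05), and Elovl6, a fatty acid elongase, rose by 1.95 (SE 0.19, adjusted p = 4.3e-07). Srebf1, which encodes SREBP1, was too low to be tested, at 0.424 ± 0.288 CPM in controls and 1.29 ± 0.870 CPM at 6 mg/kg (SD, n = 4).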

How the data were processed

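Liver RNA of 20 mice was measured with TempO-Seq. The table deposited by the authors gives a raw count for each probe in each mouse. Per the submitters' processing notes Bowtie and build GRCm38.p5 were used, with the version of Bowtie and the settings not given in the sources used here. No row lacked a name and no column lacked a sample. Library totals of 6823518 to 10310931 counts set the precision, and floors cover counting error alone, because reads after amplification do not each stand for a molecule. The 30 pairs of libraries within groups were checked for copies by chi-square over probes, and the lowest ratio to its degrees of freedom was 4.03.

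Probes were filtered with filterByExpr of edgeR 4.0.16 (R 4.3.3), which kept 14122 probes with 99.8% of the counts, and scaled by TMM. A robust quasi-likelihood fit with 1 mean per group over all 20 libraries, or a slope over dose rank, gave log2 changes, standard errors (SE, from the F statistic) and p-values adjusted by Benjamini-Hochberg over all probes, with 0.05 as the threshold. Adjusted p-values are edgeR's unless another tool is named. Since 6290 symbols have more than 1 probe, a gene was read from its main probe, the most counted over all libraries.

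The members, the neighbouring gene lists and the cell markers were chosen with earlier results of these data known, so no test over a list was made. Genes that passed at 3 or 6 mg/kg or for the slope were described in every library, the regulators by their values, and the rest by range. From each neighbouring list up to 2 genes per direction with the smallest p at 6 mg/kg were named, with Srebf1 and Fasn whatever their values; Elovl6 was among those. Replicate numbers follow the order of accessions and pair no libraries. Gene positions are from GENCODE M21 and promoters from RefSeq.

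Alternatives were scaling by DESeq2's size factors, total counts or the upper quartile, no count filter or at least 10 counts in 4 libraries, DESeq2 1.42.0, limma-voom (limma 3.58.1), a fit that is not robust, summed probes, the 8 libraries of a comparison, plate row, other dose scales, and libraries left out. On simulated counts for 6 mg/kg against control, over 13523 probes, 67 were changed 1.5-fold, 67 were changed 2-fold and 66 were changed 4-fold. Of these edgeR recovered 11.9%, 41.8% and 87.9%, and 2 of 96 calls were false. Far fewer probes were changed there than passed at 6 mg/kg in the data, so these shares may not hold for the data.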

Additional observations from a re-analysis of the deposited data

Results flagged for a closer look

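Each of the 28 genes was looked at in each of the 5 groups of 4 libraries for a highest or lowest value whose gap to the nearest other value took most of the group's range (by Dixon's ratio at its 95% critical value). Of the 140 sets, 17 held such a value; chance flags about 1 in 20 groups, which is 7 of 140, and the genes of a library are not independent. The library dose_6 replicate 4 gave 6 of them: it was high for Acat2 (558 CPM), Fdps (344 CPM), Sc5d (2332 CPM), Scap (62.5 CPM) and Tm7sf2 (45.8 CPM) and low for Msmo1 (386 CPM). From dose_3 replicate 4 came a low Ebp (2.86 CPM), a high Sqle (69.1 CPM) and a high Tm7sf2 (37.0 CPM), and from dose_3 replicate 3 a low Scap (34.2 CPM). At 0.03 mg/kg, replicate 4 was high for Aacs (55.6 CPM), Cyp51 (34.0 CPM) and Mvd (2.61 CPM). At 0.3 mg/kg, replicate 2 was high for Dhcr7 (18.9 CPM) and Idi1 (565.9 CPM). In controls, replicate 3 was high for Aacs (45.2 CPM) and replicate 2 low for Fdps (84.7 CPM).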

How the results depend on the processing

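No paired analysis was possible because the labels give no replicate numbers. Among the alternative values of single genes, 2561 kept their direction and side of the threshold, 104 lost a call, 14 gained one and 39 changed sign, and in none of these 39 did either value pass. With plate row the 3 mg/kg change was 0.20 for Acat2, 0.20 for Mvd, 0.48 for Lss, -0.37 for Lbr, -0.054 for Sc5d and 0.61 for Stard4, and the 6 mg/kg change was 0.081 for Srebf2, 0.048 for Scap and 0.18 for Npc1. Without both dose_3 replicate 4 and dose_6 replicate 4 the 3 mg/kg change was -0.068 for Mvk, 0.15 for Ggps1 and 0.22 for Lss. With limma-voom it was 0.014 for Mvd and -0.018 for Sc5d, and with summed probes 0.43 for Lss. At 6 mg/kg Scap gave 0.14 and Npc1 0.11 scaled by total counts, 0.022 and 0.014 scaled by the upper quartile, and Npc1 0.024 with summed probes. With a library left out, the 3 mg/kg change was -0.064 to 0.35 for Mvk, -0.38 to 0.077 for Mvd, -0.27 to 0.15 for Ggps1, -0.45 to 0.22 for Lss, -0.046 to 0.28 for Lbr and -0.11 to 0.19 for Sc5d, and the 6 mg/kg change was -0.29 to 0.13 for Scap, -0.085 to 0.44 for Stard4 and -0.14 to 0.070 for Npc1. No alternative called a member at 0.03 mg/kg, where the median was 0.030 to 0.26 with a library left out (the ends without dose_0.03 replicate 4 and without control replicate 3). At 0.3 mg/kg DESeq2 and the fit on the 8 libraries of the comparison each called 1, and leaving out a library called 0. At 3 mg/kg DESeq2 called 2, the 8 libraries 0 and plate row 0, leaving out a library 1 to 2, and the median was 0.58 with plate row and 0.16 to 0.34 with a library left out. At 6 mg/kg plate row called 8 members, and 508 of all 14122 probes. The median of the members was then 1.24, with Insig1 moving to 1.87 and Pmvk to 1.58. Leaving out a library called 18 to 21 members with medians of 0.95 to 1.11. Between 6 and 3 mg/kg the 8 libraries called 0 members, and 11 of all probes. The fit without dose_3 replicate 4 and dose_6 replicate 4 called 19 members, and 2478 of all probes, against 950 with all libraries. The fit without a filter called 8 members. Leaving out a library called 2 to 18, with the lows of 2 and 6 without dose_3 replicate 1 and replicate 2. For the slope, leaving out a library called 14 to 21. Plate row as a covariate was not run for the slope. All values with plate row rest on dose_0.3 replicate 4, which alone of its group lay in row B. The causes of these moves were not tested. Scaling by total counts moved the median of all probes to 0.16 at 0.3 mg/kg and 0.15 at 6 mg/kg, the medians of the members to 0.43 and 1.16, and the split of all calls at 6 mg/kg from 1634 higher and 1233 lower to 1894 and 811. Depth limits Mvd, Hsd17b7 and Stard4, counted 3 to 39 times a library.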
